A study of Arabidopsis thaliana with 14 samples.

Results

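The type-B response regulators are the transcription factors at the end of the cytokinin signalling chain, and 10 Arabidopsis genes of this family, ARR1, ARR2, ARR10, ARR11, ARR12, ARR13, ARR18, RR19, ARR20 and ARR21, were followed here among the 27394 genes counted in siliques. They were taken by gene identity, and the family was chosen by the counts of RR19 in these same libraries, so the values of RR19 are given as a description with no test. The 14 mRNA libraries, each made from 3 siliques collected 6 to 9 days after anthesis from Col-0 plants under a 16 h photoperiod, fell into 5 groups. The Aza1 eM3 group (n = 4) came from different plants of the generation after Aza1 eM2 (n = 3), which holds diploid offspring of jas-3 plants whose seeds had been exposed to 5-Azacytidine, a cytosine analog that blocks DNA methylation. The DMSO group (n = 3) was jas-3 given the solvent alone, the jas-3 group (n = 2) was untreated, and WT (n = 2) was untreated Col-0. The sample labels call the Aza1 groups eM1 and eM2, and the generation names of the study are used here. All groups other than WT carried jas-3, a mutation that makes plants shed part of their pollen as diploid grains, so that selfed siliques hold triploid seeds beside diploid ones. Both Aza1 groups descend from a single treated line, so that line and the treatment cannot be told apart.

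In the cytokinin phosphorelay, histidine kinase receptors pass a phosphate to shuttle proteins (AHPs), which pass it to response regulators in the nucleus. Type-B regulators carry a receiver domain and a DNA-binding domain and activate cytokinin-responsive genes, among them the type-A regulators, which dampen the response. ARR1, ARR10 and ARR12 carry most of the cytokinin response of seedlings, whereas ARR13 and ARR21 (subfamily II) and RR19 and ARR20 (subfamily III) are known mainly from reproductive tissues and seeds.

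Total gene counts were between 40526464 and 43974069 per library (median 41532174). JASON (AT1G06660), which jas-3 disrupts, was counted 188 and 225 times in libraries with the jas-3 label, against 14 and 14 times in WT (log2 fold change 3.04, SE 0.40, edgeR quasi-likelihood test with Benjamini-Hochberg adjustment, adjusted p = 0.000138). The transcript of the targeted gene was thus more abundant where the mutation was labelled, so these counts do not check the labels, and jas-3 below means the libraries labelled so. Seed storage transcripts took 14.9 to 27.6% of gene counts in Aza1 eM3, 21.8 to 30.7% in Aza1 eM2, 10.7 to 22.6% in DMSO, 7.97 to 17.0% in jas-3 and 36.7 to 42.5% in WT. Summed over 7 endosperm markers, the level was 63.7 to 97.6 counts scaled to a common library size (CPM) in Aza1 eM3, 58.3 to 61.0 CPM in Aza1 eM2, 83.8 to 138 CPM in DMSO, 98.7 to 133 CPM in jas-3 and 14.3 to 18.2 CPM in WT, where the markers PHE1 and MINI3 were at 0. The 4 embryo markers summed to 244 to 335 CPM over all groups, mostly from ABI3 and FUS3, while LEC1 differed between groups as given below. The libraries are of whole siliques, in which fewer cells of a type and less RNA per cell cannot be told apart. The siliques spanned 6 to 9 days after anthesis, and whether seed stage was matched between groups was not tested. In the comparisons with WT, stage and genotype therefore cannot be told apart. Nor can stage and treated line be told apart in the comparisons of the Aza1 groups with DMSO.

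RR19 (AT1G49190) lies on TAIR10 chr1:18191267-18193782, ARR13 (AT2G27070) on chr2:11555781-11560215 and ARR21 (AT5G07210) on chr5:2252237-2256018. These 3 genes differ most between the groups below. For ARR13 and ARR21, which are close relatives, the 250 bases before the annotated starts are shown 5′ to 3′ on the gene's strand (RefSeq, TAIR10.1) to compare their promoters. They cover chr2:11560216-11560465 (minus strand) for ARR13 and chr5:2251987-2252236 (plus strand) for ARR21, and capitals mark AGATT, the core motif that type-B regulators bind, on either strand (AATCT where it lies on the other strand).
ARR13: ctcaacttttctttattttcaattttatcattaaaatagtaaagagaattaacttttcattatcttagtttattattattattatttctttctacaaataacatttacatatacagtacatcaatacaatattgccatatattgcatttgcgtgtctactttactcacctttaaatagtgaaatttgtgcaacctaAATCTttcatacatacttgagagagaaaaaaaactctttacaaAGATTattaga
ARR21: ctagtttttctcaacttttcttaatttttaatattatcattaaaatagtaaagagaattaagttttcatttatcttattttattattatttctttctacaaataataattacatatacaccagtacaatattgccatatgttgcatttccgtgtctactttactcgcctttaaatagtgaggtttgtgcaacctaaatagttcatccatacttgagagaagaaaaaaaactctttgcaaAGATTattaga
The stretch upstream of ARR13 held 2 AGATT matches and that of ARR21 held 1. In the first 50 bases after the annotated start, each gene had 1 further match, at base 14. For both genes the annotated start is also the coding start. That match thus lies after the coding start, and the 250 bases shown include any untranslated leader. Over the whole window of 250 bases before to 50 bases after the start, 8 of the 9 members searched had an AGATT and ARR1 had none, beside 69.7% of 27443 protein-coding genes. Neither AGATACG, a longer type-B motif, nor a CArG box, the motif of MADS-box factors, was in the window of any of these 9 members on either strand, and these were in 2.04% and 3.05% of all promoters. The windows of ARR13 and ARR21, which include the first 50 bases from the coding start, were 93.1% identical over 289 bases aligned without gaps. Over the whole alignment of the windows the identity was 86.5%. Their coding sequences were 92.3% identical over the positions aligned without gaps and 85.0% over the whole alignment. All 100-base windows of ARR21 and 97.9% of those of ARR13 occur once in the genome.

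RR19 was, by mean level per gene span (an order that exonic length turns in part, as given below), the most abundant member in 3 of the groups and close to absent in WT. It had 5128, 1738, 4895 and 1704 counts in Aza1 eM3, 238, 248 and 428 counts in Aza1 eM2, 7548, 4680 and 3764 counts in DMSO, 4132 and 5041 counts in the jas-3-labelled libraries, and 0 and 6 counts in WT. The Aza1 eM2 libraries lay below every DMSO, jas-3 and Aza1 eM3 library and above both WT libraries. This is a description only, because the RR19 counts chose the family. In FPKM, counts per kilobase of gene span scaled to the gene counts of the library, RR19 stood at 31.7 ± 17.4 in Aza1 eM3 (SD, n = 4), 2.94 ± 1.04 in Aza1 eM2 (n = 3), 50.1 ± 19.2 in DMSO (n = 3) and 43.5 ± 6.2 in jas-3 (n = 2). In WT the mean was 0.0292 FPKM, from the 6 counts of a single library, and the 0 counts of the other WT library allow up to 3 counts. On the scale normalised by TMM (trimmed mean of M values), RR19 had a fitted log2 fold change of -3.78 for Aza1 eM2 over DMSO, of -0.58 for Aza1 eM3 over DMSO and of 3.21 between Aza1 eM3 and Aza1 eM2.

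**Figure D1:**
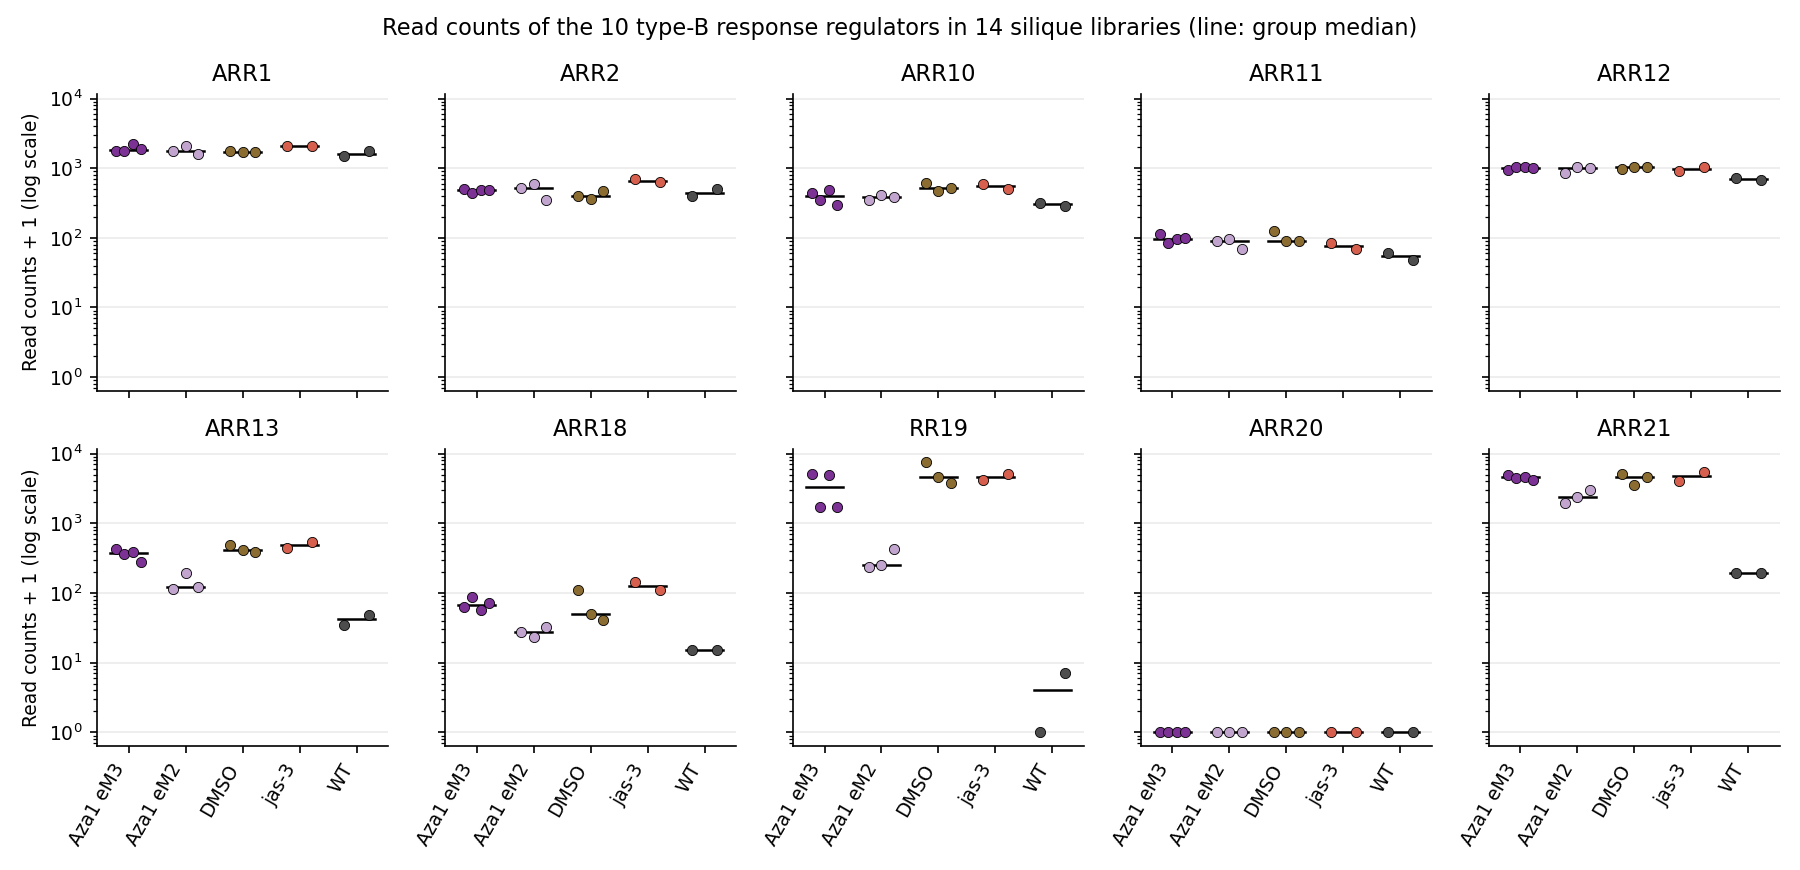
Counts of the members in each of the 14 libraries, by group, on a log axis of counts + 1. The 3 Aza1 eM2 libraries of RR19 sit between 238 and 428 counts, below the DMSO libraries at 3764 to 7548 counts.

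RR19 also varied within the Aza1 eM3 group. Libraries 1 and 3 had 5128 and 4895 counts, inside the DMSO range, while libraries 2 and 4 had 1738 and 1704 counts, below every DMSO library. The highest Aza1 eM3 library was 2.62 times the lowest in TMM-normalised CPM, against 1.23 times for ARR21 and 1.34 times for ARR13. CKI1, a histidine kinase needed in the female gametophyte, had 144, 48, 156 and 50 counts in the same 4 libraries. PHE1, a type I MADS-box gene expressed from the paternal genome in endosperm, had 789, 163, 1065 and 279 counts there. All 3 genes were thus higher in libraries 1 and 3 than in libraries 2 and 4. The seed storage share in these libraries was 19.0, 26.9, 14.9 and 27.6%, lower in libraries 1 and 3, and its part in the RR19 values was not tested. ARR18 ran the other way in these libraries, with 62, 88, 56 and 70 counts.

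ARR21, a subfamily II regulator, was by gene span the second most abundant member in Aza1 eM3, DMSO and jas-3 and the most abundant in Aza1 eM2. It had 4969, 4517, 4699 and 4243 counts in Aza1 eM3, 1947, 2407 and 3025 counts in Aza1 eM2, 5146, 3575 and 4610 counts in DMSO, 4075 and 5384 counts in the jas-3-labelled libraries, and 195 and 193 counts in WT. In raw counts the Aza1 eM2 libraries were below all DMSO libraries and above both WT libraries, but in TMM-normalised CPM they overlapped DMSO, with 83.1 in Aza1 eM2 library 3 against 80.3 in DMSO library 2. ARR13, the close relative of ARR21, had 430, 366, 388 and 279 counts in Aza1 eM3, 114, 194 and 122 counts in Aza1 eM2, 490, 408 and 390 counts in DMSO, 440 and 546 counts in jas-3, and 34 and 48 counts in WT. It too was lowest in WT and next lowest in Aza1 eM2, and the share of all genes with this order was not counted. ARR18, a subfamily I regulator, had 62, 88, 56 and 70 counts in Aza1 eM3, 27, 22 and 32 counts in Aza1 eM2, 108, 49 and 40 counts in DMSO, 144 and 110 counts in jas-3, and 14 and 14 counts in WT. ARR20, the subfamily III relative of RR19, had 0 counts in all 14 libraries, which allows up to 3 counts in each, and was not detectable at this depth.

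The seedling regulators ARR1, ARR10 and ARR12, together with ARR2 and ARR11, spanned much narrower ranges. ARR1 had 1478 to 2228 counts over all 14 libraries and ARR12 had 677 to 1054 counts. ARR2 spanned 348 to 692 counts, ARR10 290 to 604 counts and ARR11 47 to 124 counts. ARR14, an 11th type-B gene outside the list, had 29 to 127 counts. Part of the span of ARR1 overlaps AT3G16860 in the annotation, and its counts are uncertain to that extent. Annotated transposable elements overlap the spans of ARR13 (4 elements), ARR2 (1) and ARR21 (1). Whether reads from these elements entered the counts of the genes was not tested.

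Per length, the order of the members changed between groups. In Aza1 eM2, ARR21 averaged 15.8 ± 3.5 FPKM, followed by ARR1 at 12.1 ± 1.5, ARR12 at 8.80 ± 0.81, ARR2 at 3.38 ± 0.84, ARR10 at 3.25 ± 0.24 and RR19 at 2.94 ± 1.04 (SD, n = 3), and the last 3 of these lay within each other's spread. In DMSO, RR19 at 50.1 ± 19.2 and ARR21 at 27.7 ± 4.8 FPKM came before ARR1 at 11.2 ± 0.5 and ARR12 at 8.95 ± 0.36 (SD, n = 3), and the spreads of RR19 and ARR21 overlapped. In WT, ARR1 at 10.9 ± 1.2 and ARR12 at 6.51 ± 0.38 FPKM led, while ARR21 was at 1.26 ± 0.01 and ARR13 at 0.227 ± 0.054 (SD, n = 2). Summed over the members, the family stood at 75.4 to 112 FPKM in Aza1 eM3, 43.0 to 50.9 in Aza1 eM2, 92.3 to 137 in DMSO, 101 to 118 in jas-3 and 24.6 to 26.2 in WT. The 6 subfamily I genes made up 26.0 to 39.4% of this sum in Aza1 eM3, 52.4 to 64.0% in Aza1 eM2, 22.2 to 30.5% in DMSO, 28.2 to 33.5% in jas-3 and 94.0% in both WT libraries. RR19, whose counts chose the family, made up 4.70 to 8.13% in Aza1 eM2, against 37.1 to 52.2% in DMSO. The differences in the sum and in the subfamily I share between these groups thus follow RR19 in large part. They are given as a description only. When exonic length replaced gene span, a choice made after seeing the data, ARR21 came before RR19 in both jas-3 libraries, at 36.3 and 40.2% against 32.2 and 33.0%, in all 4 Aza1 eM3 libraries, at 38.0 to 50.1% against 16.9 to 35.9%, and in DMSO library 3, at 42.0 against 30.0%. The order of these 2 genes is therefore not settled outside Aza1 eM2 and WT.

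**Figure D2:**
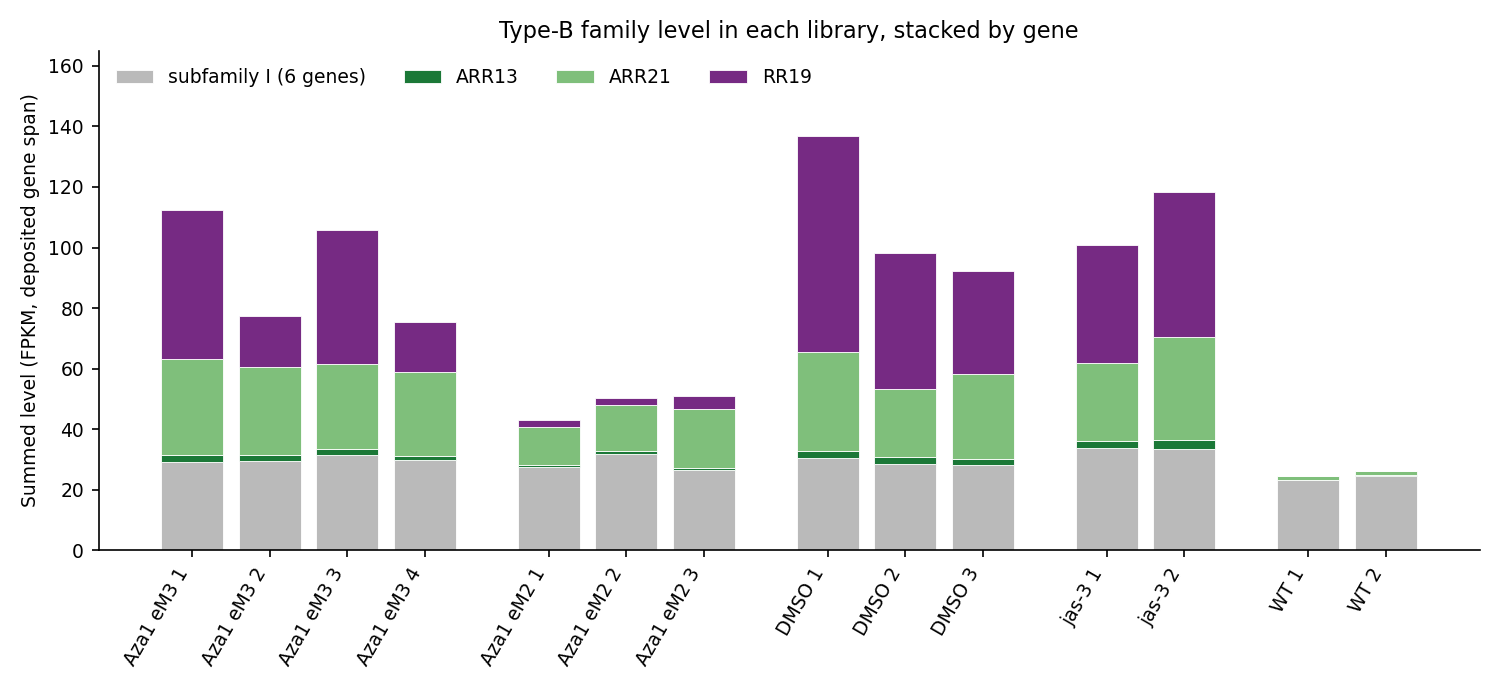
Summed level of the type-B genes in each library (stacked bars, FPKM by gene span), split into RR19, ARR21, ARR13 and the 6 subfamily I genes. The Aza1 eM2 bars reach 43.0 to 50.9 FPKM and the DMSO bars 92.3 to 137 FPKM, with RR19, whose counts chose the family, included.

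To ask how the family differs between siliques of jas-3 plants and of WT, all 14 libraries were fitted together. Of the 9 members with enough counts, all but RR19 were tested, and calls required an absolute log2 fold change of 2 or more and an adjusted p under 0.01. With jas-3-labelled libraries set against WT, 3 members rose, ARR21, ARR13 and ARR18, while 7.08% of all 22359 tested genes were called higher. ARR21 rose by a log2 fold change of 3.78 (SE 0.27, adjusted p = 1.45e-06), ARR13 by 2.74 (SE 0.28, adjusted p = 1.90e-05) and ARR18 by 2.32 (SE 0.49, adjusted p = 0.00308; edgeR with Benjamini-Hochberg adjustment). The ARR18 call ended with the seed storage share as a covariate (adjusted p = 0.171), with only the jas-3 and WT groups fitted (0.0146), without WT replicate 1 (0.0232), without WT replicate 2 (0.0208) and without jas-3 replicate 1 (0.0198). No member was called lower by edgeR or by DESeq2, beside 1.99% of all genes by edgeR, and 1 member, ARR1, was lower at an unadjusted p under 0.05. The median over the 9 measured members was 0.02, a description only, because RR19, whose counts chose the family, is among them.

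In DMSO against WT the calls were 2 of the same genes, with 7.44% of all genes called higher, and 0 members were called lower by edgeR or DESeq2 (2 at an unadjusted p under 0.05), with 2.98% of all genes called lower. ARR21 had a log2 fold change of 3.74 (SE 0.26, edgeR adjusted p = 9.62e-07) and ARR13 of 2.60 (SE 0.27, edgeR adjusted p = 1.54e-05). ARR18 had 1.42 (SE 0.46, edgeR adjusted p = 0.0213) and did not pass. Both comparisons use the same WT libraries. ARR1 and ARR2 were at -0.68 and -0.89 (edgeR adjusted p = 0.0018 and 0.00369), below the fold threshold. Scaling by total gene counts in place of TMM shifted all log2 fold changes by 0.80 in jas-3 against WT and by 0.71 in DMSO against WT, and ARR1 then stood at 0.32 and 0.04, with the sign turned, while ARR2 was at 0.53 in jas-3 and -0.17 in DMSO. ARR13, ARR18 and ARR21 stayed higher than WT on both scales. In DMSO against the libraries labelled jas-3, 0 members were called by edgeR or by DESeq2, and 0 were higher and 2 lower at an unadjusted p under 0.05, beside 0.0894% of genes called higher and 0.121% called lower. The log2 fold changes of ARR13 and ARR21 there were -0.14 (95% interval -0.64 to 0.35) and -0.04 (-0.51 to 0.42).

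The members that rose against WT moved with some markers of seed and silique tissues. LEC1, a regulator of embryo development, had 2534, 2485, 2764 and 2314 counts in Aza1 eM3, 1079, 1375 and 1381 counts in Aza1 eM2, 3867, 2911 and 1766 counts in DMSO, 3540 and 2735 counts in jas-3, and 67 and 32 counts in WT. It was the 1 embryo marker of 4 called higher against WT, and its lowest groups were those of ARR21. Its log2 fold change was 5.16 in jas-3 and 5.09 in DMSO (edgeR adjusted p = 9.90e-07 and 6.27e-07). The median of the 4 was 0.10 in jas-3 and 0.04 in DMSO. At an unadjusted edgeR p under 0.05, 1 embryo marker was lower in jas-3 and 2 in DMSO. ABI3 ran the other way from LEC1. It had 99.9 and 122 TMM-normalised CPM in jas-3 and 100 to 183 in DMSO, against 273 and 364 in WT. For jas-3-labelled libraries against WT, 4 of 7 endosperm markers were called higher, and in DMSO against WT 3 of 7 were. Green tissue markers (6 genes) summed to 7132 to 11824 CPM in jas-3 and 5077 to 8823 CPM in DMSO, against 2463 to 3019 CPM in WT. None of the 6 was called by edgeR or DESeq2 in either comparison, their median log2 fold change was 0.79 in jas-3 and 0.16 in DMSO, 4 were higher and 1 lower at an unadjusted p under 0.05 in jas-3, and in DMSO 1 was higher (LHCB1.3, 1.79) and 1 lower (FUL, -1.10) at an unadjusted p under 0.05. Seed coat markers (5 genes) summed to 191 to 637 CPM in jas-3 and 164 to 317 CPM in DMSO, against 108 to 141 CPM in WT. These sums are scaled to total gene counts. By edgeR, 2 of the 5 were called higher and 0 lower in each comparison. The median of the 5 was 1.71 in jas-3 and 0.76 in DMSO. At an unadjusted edgeR p under 0.05, 1 was lower in each. STK ran the other way, at 41.3 and 58.5 TMM-normalised CPM in jas-3 and 37.6 to 55.4 in DMSO, against 102 and 107 in WT. MUM4 had 369 and 84.0 in jas-3, against 76.9 and 61.7 in WT. The part of these markers and of the seed storage share in the values of ARR13, ARR18 and ARR21 was not tested beyond the covariate fit above.

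**Figure D3:**
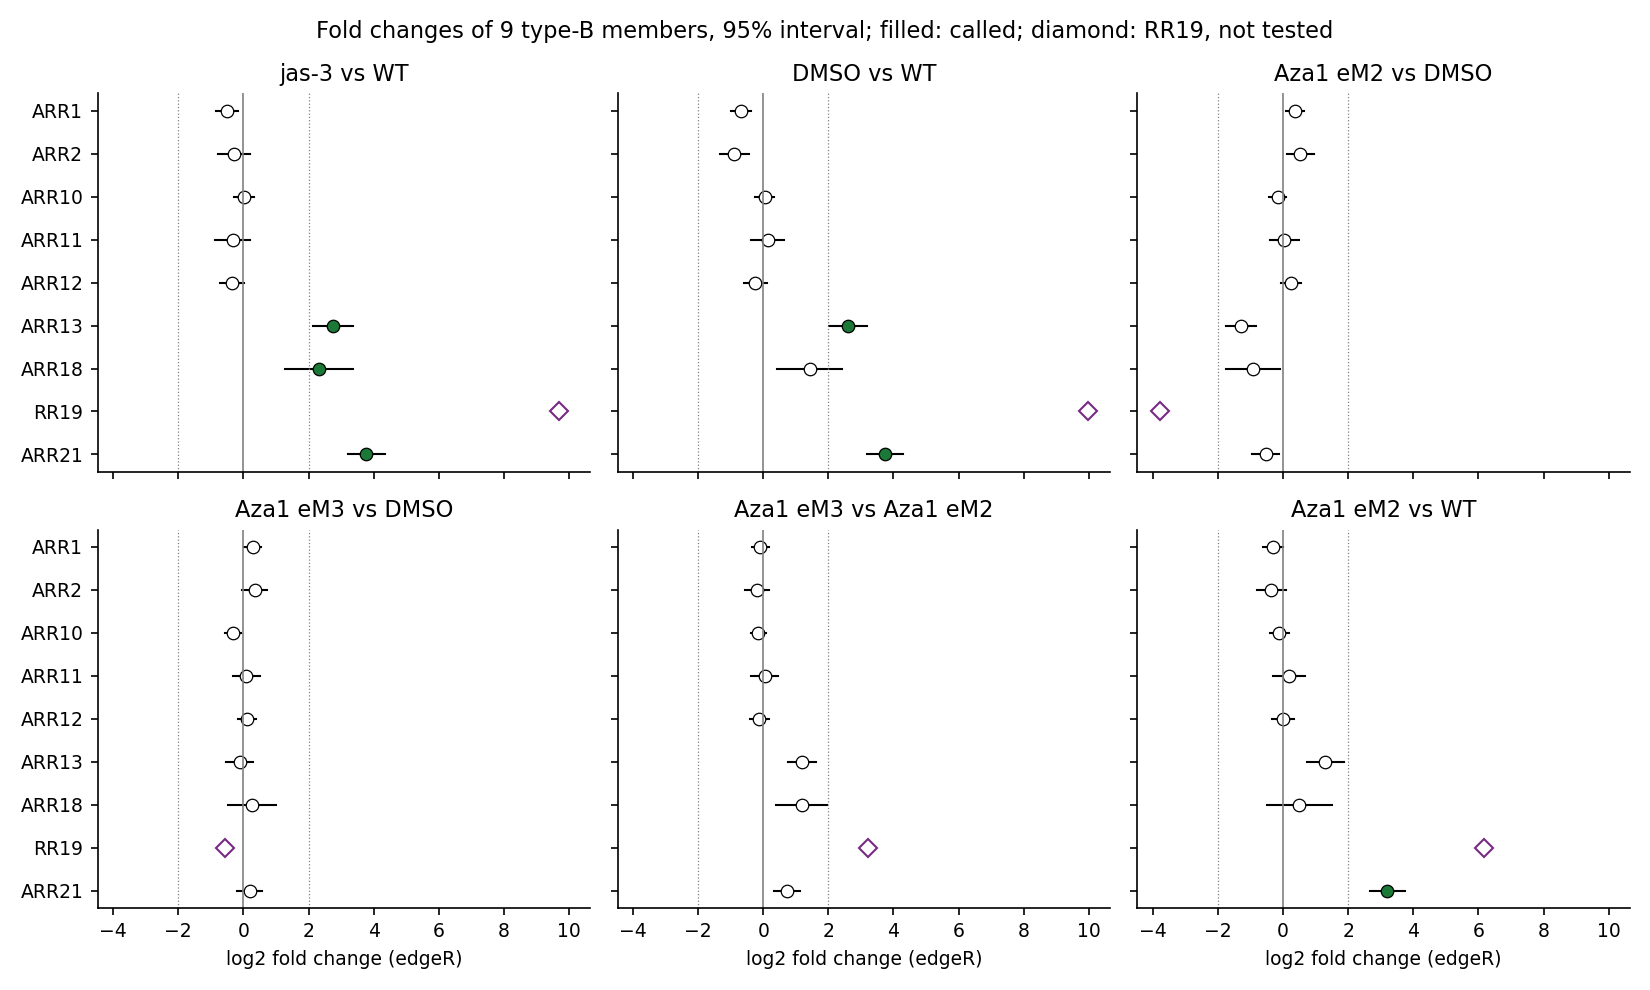
Log2 fold change of each measured member with its 95% interval (horizontal bars) in 6 comparisons, filled where called, with dotted lines at a log2 fold change of 2 in either direction. ARR21 and ARR13 lie beyond the line in jas-3 against WT at 3.78 and 2.74, and RR19 is drawn as a diamond without an interval because it was not tested.

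The comparison of Aza1 eM2 with DMSO asks what differed in siliques of the treated line. ARR13 was lower in all 3 Aza1 eM2 libraries, with a log2 fold change of -1.3 (SE 0.21, 95% interval -1.75 to -0.84, edgeR adjusted p = 0.00349), which is under the fold threshold. ARR21 had -0.53 (SE 0.19, edgeR adjusted p = 0.175) and ARR18 -0.93 (SE 0.38, edgeR adjusted p = 0.229). At the threshold used, 0 of the 8 tested members were called by edgeR or by DESeq2, while 2 were higher and 3 lower at an unadjusted p under 0.05, beside 0.0716% of genes called higher and 1.44% called lower. The 2 higher ones were ARR1 at 0.37 and ARR2 at 0.53. ARR10 had 350, 412 and 383 counts in Aza1 eM2, against 604, 476 and 510 counts in DMSO, yet -0.16 after TMM scaling (edgeR adjusted p = 0.512). With a fold threshold of 1 on the log2 scale ARR13 was called, beside 1.96% of genes called lower. That call ended with the seed storage share as a covariate (adjusted p = 0.0186), without DMSO replicate 1 (0.0165), without DMSO replicate 2 (0.0148), without Aza1 eM2 replicate 1 (0.0226) and without Aza1 eM2 replicate 3 (0.0188). The median over the 9 measured members was -0.16, a description only, because RR19, whose counts chose the family, is among them. Scaling by total counts shifted every log2 fold change by -0.27. On that scale ARR1 and ARR2 stood nearer to 0, and ARR13, ARR18 and ARR21 further below it. PHE1 was the endosperm marker called lower of 7 (log2 fold change -4.98, edgeR adjusted p = 0.00412). Without PHE1 the markers summed to 57.8 to 59.8 CPM in Aza1 eM2 and 71.8 to 90.8 CPM in DMSO, scaled to total gene counts. In TMM-normalised CPM the sums without PHE1 overlapped between these groups. There IKU2, the most abundant of these markers, had 46.6 in Aza1 eM2 library 3 against 38.7 in DMSO library 3. ZOU stayed lower, at up to 19.6 in Aza1 eM2 against at least 20.1 in DMSO. Over the 7 markers the median log2 fold change was -0.54, with 0 higher and 2 lower at an unadjusted edgeR p under 0.05. The part of endosperm content in the values of RR19 and ARR13 was not tested.

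Against WT, Aza1 eM2 still had 1 member called higher, beside 5.4% of all genes, and 0 called lower by edgeR or DESeq2 (1 at an unadjusted p under 0.05), beside 1.62% of all genes. ARR21 was at a log2 fold change of 3.21 (SE 0.25, edgeR adjusted p = 3.63e-06), ARR13 at 1.3 (SE 0.26, edgeR adjusted p = 0.0023) and ARR18 at 0.50 (edgeR adjusted p = 0.414). With a fold threshold of 1 on the log2 scale ARR13 was called too, beside 9.85% of all genes. In raw counts, the Aza1 eM2 libraries of ARR21, ARR13 and ARR18 lay between those of DMSO and WT, nearer to DMSO for ARR21 on the log scale. In TMM-normalised CPM this order held for ARR13 only. ARR18 in Aza1 eM2, at 0.500 to 0.879, overlapped both WT (0.455 and 0.544) and DMSO (0.848 to 2.07). ARR21 overlapped DMSO, with 83.1 in Aza1 eM2 library 3 against 80.3 in DMSO library 2. RR19 stood at a fitted value of 6.18 against WT, which rests on the 6 counts of a single WT library.

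In the next generation, Aza1 eM3, the intervals of ARR13, ARR18 and ARR21 against DMSO spanned 0, whereas RR19 was below every DMSO library in 2 of the 4 libraries. The log2 fold changes in Aza1 eM3 against DMSO were -0.11 for ARR13 (95% interval -0.52 to 0.31), 0.25 for ARR18 (-0.48 to 0.99) and 0.19 for ARR21 (-0.20 to 0.58). In this comparison 0 members and 0% of all genes were called by edgeR, DESeq2 called 0 members, and 1 member was higher and 1 lower at an unadjusted p under 0.05. In Aza1 eM3 against Aza1 eM2, ARR13 was higher by 1.19 (SE 0.20, edgeR adjusted p = 0.00668), ARR18 had 1.18 (SE 0.36, edgeR adjusted p = 0.119) and ARR21 0.72 (SE 0.18, edgeR adjusted p = 0.0548). With the fold threshold 0 members were called by edgeR or by DESeq2, and 3 were higher and 0 lower at an unadjusted p under 0.05, beside 0.868% of genes called higher and 0.0626% called lower. With a fold threshold of 1 on the log2 scale ARR13 was called, beside 1.15% of genes called higher. That call ended without any single library other than Aza1 eM3 replicate 4 (adjusted p = 0.0126 to 0.0414), with only these groups fitted (0.0202), with the filter of 10 counts in each library (0.0222) and with a replicate block (0.0106). The comparison shares the Aza1 eM2 libraries with the one against DMSO.

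The other genes of the cytokinin pathway were read from a list of 58 genes, of which 51 were tested. For jas-3-labelled libraries against WT, 4 were called higher and 0 lower by edgeR, 5 and 0 by DESeq2, and 15 and 11 at an unadjusted p under 0.05, beside 7.08% of all tested genes called higher and 1.99% lower by edgeR, so the count is near the background. CRF1, a cytokinin response factor of the AP2/ERF family, had 145 and 66 counts in jas-3, against 4 and 0 counts in WT (log2 fold change 4.82, edgeR adjusted p = 0.000268). CKI1 had 52 and 132 counts in jas-3, against 0 and 2 counts in WT (5.60, SE 1.04, edgeR adjusted p = 0.00152). CYP735A1, which makes trans-zeatin-type cytokinins, had 98 and 112 counts in jas-3, against 14 and 2 counts in WT (2.92, edgeR adjusted p = 0.000977), and CRF4 was at 2.64 (edgeR adjusted p = 0.000287).

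In DMSO against WT, 6 of the 51 were called higher and 2 lower, beside 7.44% and 2.98% of all tested genes. The higher ones were CYP735A1 (2.90), LOG3 (3.22), CKI1 (6.61), AHP4 (2.86), CRF1 (5.04) and CRF4 (2.37), where LOG3 encodes a cytokinin-activating enzyme and AHP4 a phosphotransfer protein. The lower ones were LOG1, another activating enzyme, at -2.66 and ARR8, a type-A regulator, at -2.19. LOG1 had 580, 580 and 1123 counts in DMSO, against 2401 and 3204 counts in WT. Aza1 eM2 against WT had 4 called higher, CYP735A1, AHP4, CRF1 and KMD1, and the same LOG1 and ARR8 called lower at -2.47 and -2.05, beside 5.4% of all tested genes called higher and 1.62% lower. KMD1 encodes an F-box protein that targets type-B regulators for degradation.

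Between Aza1 eM2 and DMSO, 0 of the 51 were called by edgeR, 4 were higher and 5 lower at an unadjusted p under 0.05, and DESeq2 called 1 lower, CKI1. CKI1 had 20, 16 and 35 counts in Aza1 eM2, against 212, 126 and 210 counts in DMSO (log2 fold change -2.60, SE 0.57, edgeR adjusted p = 0.0206). In Aza1 eM3 against DMSO 0 were called by edgeR and by DESeq2, with 2 higher and 4 lower at an unadjusted p under 0.05. In Aza1 eM3 against Aza1 eM2 0 were called by either tool, with 5 higher and 3 lower, and CKI1 stood at 1.80 (edgeR adjusted p = 0.112). The 8 tested type-A genes, read as targets of the type-B regulators, stood at a median of -0.63 on the log2 scale for Aza1 eM2 over DMSO, beside 0.01 over all genes, with 1 higher and 2 lower at an unadjusted p under 0.05 and 0 called by edgeR or DESeq2. Their median was 0.12 in jas-3 against WT and -0.52 in DMSO against WT.

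**Figure D4:**
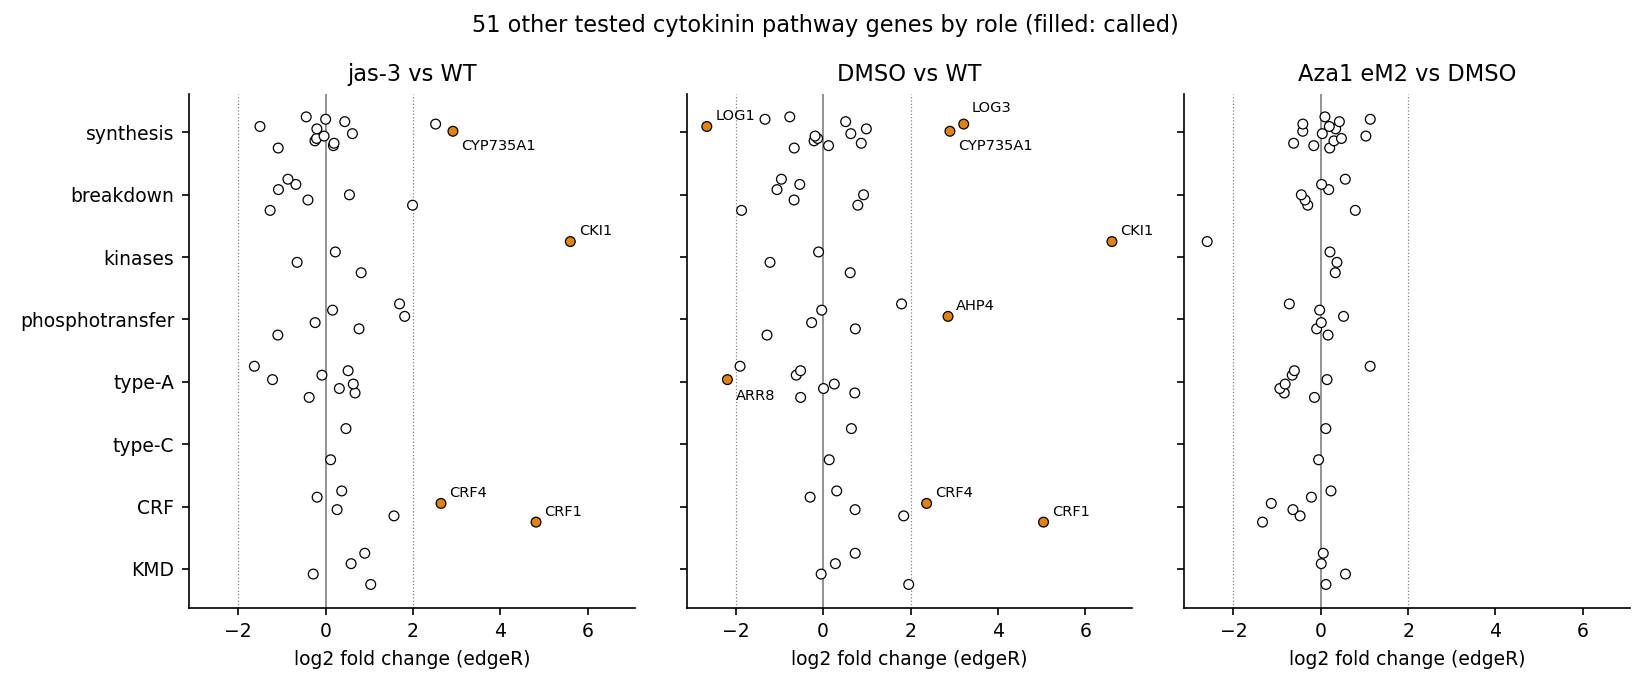
Log2 fold changes of the tested cytokinin pathway genes by role (rows) in 3 comparisons, with dotted lines at 2 in either direction. Filled points are called genes, and in DMSO against WT these are 6 higher and 2 lower genes.

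The genes whose pattern over the 14 libraries was most like that of RR19 were AT3G09140 (Pearson r = 0.9985 on log2 CPM), AT1G31710 (0.9967), SK16 (AT2G03190, 0.9963), AT2G34890 (0.9962) and AT5G39560 (0.9961). AT3G09140 had 1808, 668, 1440 and 589 counts in Aza1 eM3, 122, 132 and 166 counts in Aza1 eM2, 2232, 1448 and 1103 counts in DMSO, 1705 and 1450 counts in jas-3, and 0 and 6 counts in WT. It was high in libraries 1 and 3 of Aza1 eM3, as RR19 was. The order rests on the measure, since 0 of the 5 were among the 5 highest by Spearman's rho. Those most like ARR21 were AT1G05080 (Pearson r = 0.9924), AT1G47810 (0.99), AT1G26515 (0.99), AT2G15325 (0.9898) and AT5G08600 (0.9892), of which 1 was shared with the Spearman order. Among the members, RR19 had r = 0.9685 with ARR13, 0.9475 with ARR21, 0.7569 with ARR18 and -0.7273 with ARR1. All these values are across 14 libraries that share groups, and they describe the pattern only.

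**Figure D5:**
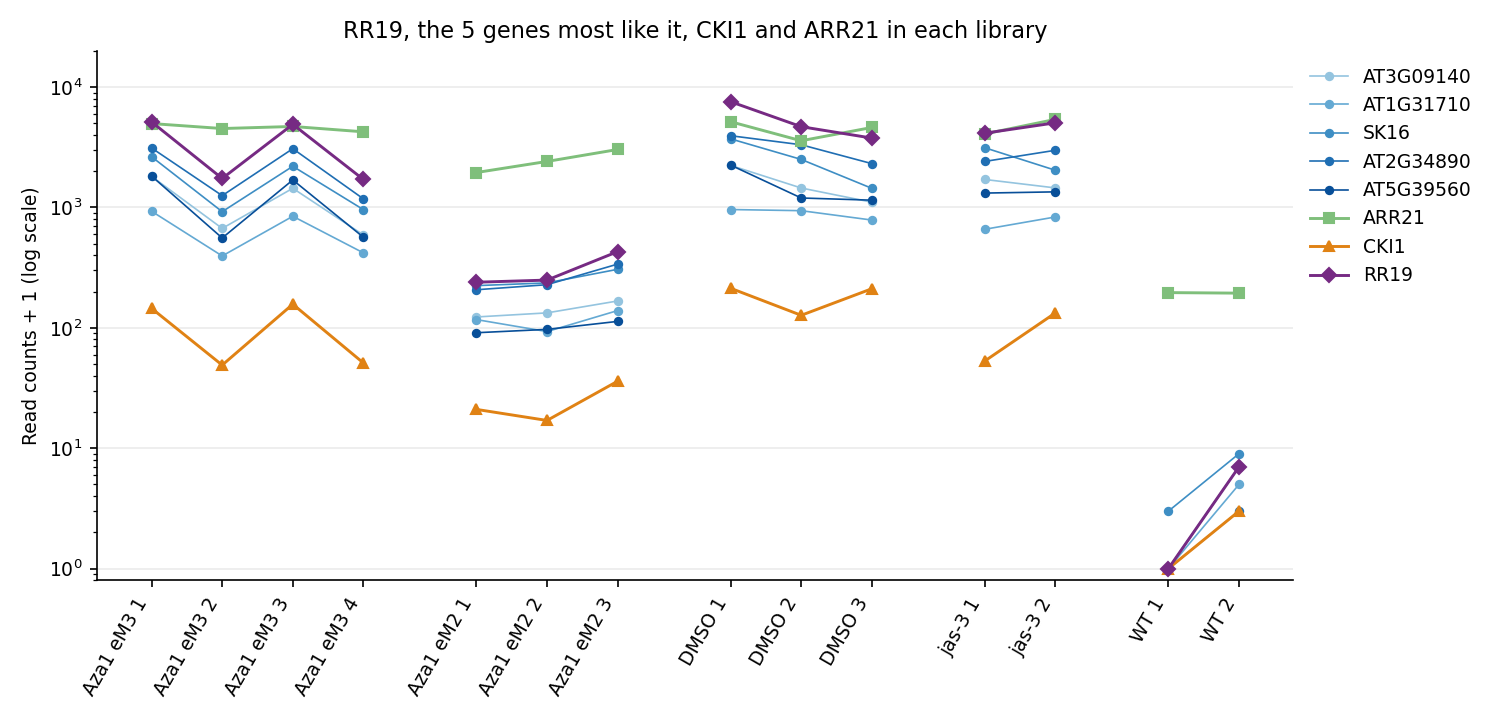
Counts + 1 (log axis) of RR19, of the 5 genes with the highest Pearson correlation to it, and of CKI1 and ARR21, in each library, with lines joining libraries of the same group only. AT3G09140 spans 122 to 166 counts in Aza1 eM2 and 1103 to 2232 counts in DMSO.

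Around RR19, an ATREP6 Helitron, AT1TE60270 (chr1:18189520-18190373), and a LINE, AT1TE60280 (chr1:18194292-18194470), flank the gene. The Helitron had 0 to 2 counts and the LINE 0 counts in every library, close to the limit of 3 counts that a count of 0 allows. The intergenic stretch between the Helitron and the start of RR19 had 42, 4, 28 and 8 counts in Aza1 eM3, 0, 2 and 2 counts in Aza1 eM2, 30, 42 and 12 counts in DMSO, 12 and 22 counts in jas-3, and 0 and 0 counts in WT. It was high and low in the same Aza1 eM3 libraries as RR19. Of the 6 nearest genes, 5 were tested, and Aza1 eM2 differed from DMSO there by -0.52 to 0.34 on the log2 scale (edgeR adjusted p = 0.181 to 0.948).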

How the data were processed

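Messenger RNA of siliques was sequenced, aligned with STAR (version not given in the sources used here) to TAIR10 and counted per feature by the authors, who named DESeq2 for counting and normalisation. The deposited files hold raw counts for 109972 features, of which 27394 genes were used, without strand. From 73.7 to 79.0% of low counts were even, so both mates of a pair appear to be counted. The intervals of the fold changes come from the edgeR fit and include the spread between libraries as well as counting error. Groups came from the labels, and separate plants are not stated for every library, so p-values measure the spread between libraries.

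Genes were filtered with filterByExpr, scaled by TMM and fitted over all 14 libraries by group in edgeR 4.0.16 (R 4.3.3, limma 3.58.1) with the quasi-likelihood test and Benjamini-Hochberg adjustment over 22359 genes, which left a common biological coefficient of variation of 0.247. The statistics were tested on simulated data. DESeq2 1.42.0, other scalings, filters, thresholds and samples were alternatives. FPKM is counts per kilobase of deposited gene span, scaled to the library's gene counts. Log2 CPM used a prior count of 2. Sequences and motifs came from RefSeq TAIR10.1 with Python 3.11.15. There 26895 of 26907 genes compared overlapped their deposited positions. The promoter of RR19 is not reported here. The members and gene lists were chosen with earlier results of these data known. Named genes were the members, their called pathway genes and the 5 genes most like RR19 and ARR21.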

Additional observations from a re-analysis of the deposited data

Results flagged for a closer look

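The change of ARR13 against DMSO differed between the 2 generations of the Aza1 line. The difference, Aza1 eM3 minus Aza1 eM2, was 1.19 on the log2 scale (SE 0.20, edgeR quasi-likelihood test with Benjamini-Hochberg adjustment, adjusted p = 0.00668), from a change of -0.11 in Aza1 eM3 and of -1.3 in Aza1 eM2. All 4 Aza1 eM3 libraries, at 279 to 430 counts, lay above the 3 Aza1 eM2 libraries, at 114 to 194 counts. The share of all genes with such a gap was not counted. Without any single library other than Aza1 eM3 replicate 4 the adjusted p was 0.0126 to 0.0414, over the threshold of 0.01. Of 10 genes checked in the Aza1 eM3 group, none had a library far enough from the other 3 to pass Dixon's critical value, which chance passes in about 1 of 20 groups. RR19 was among the 10, but nothing is read from this for RR19, because its counts chose the family. Its libraries 1 and 3 stood apart from libraries 2 and 4, a split that a check for 1 far library cannot flag.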

How the results depend on the processing

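The log2 fold changes of RR19, ARR13, ARR18 and ARR21 were recomputed under alternatives, and those of the other members were not compared in this way. Of these, 362 were unchanged, 5 were weaker, all of them ARR18 in jas-3 against WT, 3 moved and 3 reversed. For ARR13, ARR18 and ARR21, unchanged means the same direction and the same call, so a change that stays uncalled counts as unchanged. RR19 is among the 362 but was not tested. For it, unchanged means the same direction and a shift under the combined SD of the compared groups. The reversed ones were DMSO against jas-3, where leaving out replicates gave -0.38 to 0.13 for ARR13 (positive without jas-3 replicate 2) and -0.31 to 0.29 for ARR21 (positive without jas-3 replicate 2, and at 0.05 without DMSO replicate 2). The 3 that moved were RR19 without WT replicate 2, which holds all 6 WT counts: 14.96 in jas-3, 15.24 in DMSO and 11.44 in Aza1 eM2 against WT, values that depend on the prior count. The number of members called stayed within 1.5 times in 99 of 102 cases (in jas-3 against WT it was 2 where the ARR18 call ended), and a log2 fold threshold of 1 gave 1 for Aza1 eM2 over DMSO, 1 for Aza1 eM3 over Aza1 eM2 and 2 for Aza1 eM2 over WT. Leaving out replicates gave 2 to 3 members in jas-3 against WT. Over its alternatives ARR13 had adjusted p between 1.15e-07 and 0.0226 for Aza1 eM2 over DMSO, and between 4.43e-07 and 0.0414 for Aza1 eM3 over Aza1 eM2. Correlations of deviations between libraries with the same replicate number were -0.26 to 0.532 over pairs, with no common sign. They were 0.532 and 0.204 for replicates 1 and 2 of DMSO against jas-3, where a pairing was not tested further. A replicate block gave 3, 2, 0, 0, 0, 0 and 1 members called in jas-3 and DMSO against WT, DMSO against jas-3, Aza1 eM2 and Aza1 eM3 against DMSO, Aza1 eM3 against Aza1 eM2 and Aza1 eM2 against WT, the same as without it.

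The summed FPKM of the family includes RR19, whose counts chose the family. Without seed storage counts in the total it was 118.2 in Aza1 eM3, 66.5 in Aza1 eM2, 126.1 in jas-3 and 42.2 in WT. With TMM library sizes it was 91.8 in jas-3 and 36.9 in WT. With exonic length, chosen after seeing the data, it was 136.0 in Aza1 eM3, 70.5 in Aza1 eM2, 154.7 in DMSO, 157.6 in jas-3 and 30.7 in WT. Over all genes, edgeR called 194 higher and 14 lower in Aza1 eM3 against Aza1 eM2, and 5, 3 or 16 higher without each Aza1 eM2 replicate and 371 and 28 by DESeq2. It called 16 and 322 in Aza1 eM2 against DMSO, against 47 and 470 by DESeq2 and 53 lower without Aza1 eM2 replicate 1. With only the compared groups fitted, Aza1 eM3 against Aza1 eM2 had 0 higher and 3 lower. DESeq2 called 31 higher and 41 lower in DMSO against jas-3, where edgeR called 20 and 27, and 8 and 1 in Aza1 eM3 against DMSO, where edgeR called 0. In jas-3 against WT edgeR called 1582 higher and 446 lower over all genes, against 541 and 330 when genes under 10 counts in any library were dropped, 826 and 149 with only those groups fitted, and 665 and 19 with the seed storage share as a covariate. With that covariate ARR13 had an adjusted p of 0.0186 for Aza1 eM2 over DMSO.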
